A study of Mus musculus with 6 samples.

Results

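Proteoglycans are proteins that carry long sulfated sugar chains, the glycosaminoglycans. The genes described here are 48 genes of that system in the mouse, namely core proteins, the enzymes that build, sulfate and trim the chains, and the hyaluronan synthases with the hyaluronan receptor Cd44. They were chosen by name, with earlier results of these data known, so shares over the list describe it and are not tests. Of the 48 genes, 47 had a transcript cluster of their own on the array, out of 19938 genes and 35556 transcript clusters in all, and Ndst1 was not analysed here. The 47 were 23 core proteins, 20 enzymes and 4 hyaluronan genes, and each had a single cluster annotated with its symbol alone.

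The samples were enterospheres, free-floating spheroids grown from dissociated muscle layer of the gut of newborn C57BL/6 mice without genetic modification. They hold progenitors of the enteric nervous system and other cells of the gut wall, and floating spheroids were picked to leave adherent cells behind. Differentiation enterospheres (3 arrays) grew for 9 days with EGF and FGF and then for 2 days without them in a medium with ascorbic acid-2-phosphate. Proliferation enterospheres (3 arrays) stayed in medium with EGF and FGF for all 11 days. By the labels EGF was given at 10 ng/mL and FGF at 20 ng/mL, B27 supplement was listed in proliferation medium only, and each sample came from 3 mice, whereas the study's methods give another EGF dose, B27 at seeding only and fewer pups. The withdrawal of growth factors, the ascorbic acid-2-phosphate and, by the labels, the B27 cannot be told apart in this comparison. The study's methods describe independent experiments, each from littermates, but nothing in the labels ties a replicate number to such an experiment, so p-values measure the spread between these samples.

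Heparan sulfate and chondroitin sulfate chains start from xylose that xylosyltransferases attach to a core protein. Exostosins then extend heparan sulfate and chondroitin synthases extend chondroitin sulfate, and sulfotransferases decorate both with sulfate groups that determine which growth factors, among them FGF, Wnt and Hedgehog proteins, can bind. Hyaluronan has no core protein and is made at the cell membrane. In the developing gut, chondroitin sulfate and heparan sulfate proteoglycans lie in the matrix through which enteric neural crest cells migrate, and glypicans and syndecans act as co-receptors on cell surfaces.

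Values were log2 RMA levels, and each change is the difference of group means on that scale, differentiation minus proliferation. A gene passed the test at an adjusted p under 0.05 from limma with Benjamini-Hochberg adjustment over all 35556 clusters, of which 1459 passed, or 4.1%. Over genes with 1 cluster each the share was 5.91%, with 2.94% higher and 2.97% lower. Arrays correlated at 0.988 to 0.995 within groups and at 0.983 to 0.989 across them. The 5 markers of dividing cells all fell, with a mean level of 7.47 to 7.67 on the differentiation arrays and 9.47 to 10.30 on the proliferation arrays. Markers of fibroblasts (0 of 7 passed) had mean levels of 10.40 to 10.51 in differentiation and 10.23 to 10.83 in proliferation, and neural crest progenitor markers (2 of 7 higher) had 11.42 to 11.46 in differentiation and 11.05 to 11.27 in proliferation. Smooth muscle markers (4 of 7 higher, 1 lower) had 7.67 to 7.81 in differentiation and 7.16 to 7.22 in proliferation, and markers of interstitial cells of Cajal (1 of 3 lower) had 10.06 to 10.22 in differentiation and 10.70 to 11.09 in proliferation. The part of these cells in the changes below was not tested. Markers of endothelial cells, macrophages, and epithelium and mesothelium had mean levels between 4.86 and 6.02 on every array, below the median cluster mean of 6.15. Whether a lower level means fewer cells of a type or less RNA per cell cannot be told apart in such mixed samples.

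Differentiation enterospheres had less mRNA for the cell-surface glypicans Gpc3, Gpc4 and Gpc6 and for the chondroitin sulfate proteoglycan Cspg4, and more for Gpc1 and the syndecan Sdc1. Of the 47 genes, 10 passed the test (21.3%), 3 higher and 7 lower. The median change over the 47 was -0.02, against 0.02 over all genes, and the median absolute change was 0.25, against 0.11. Among genes with a mean level of at least 6.15 the share past the test was 9.13%, and 5 of the 47, Acan, Ogn, Omd, Has1 and Has3, lay below that level on all arrays. The 3 differentiation arrays did not overlap with the 3 proliferation arrays in 22 of the 47 genes (46.8%), against 27.5% of all genes and 37.1% of genes with a mean level of at least 6.15. Without differentiation replicate 1 the number past the test was 4, and without differentiation replicate 3 or proliferation replicate 3 it was 6.

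**Figure D1:**
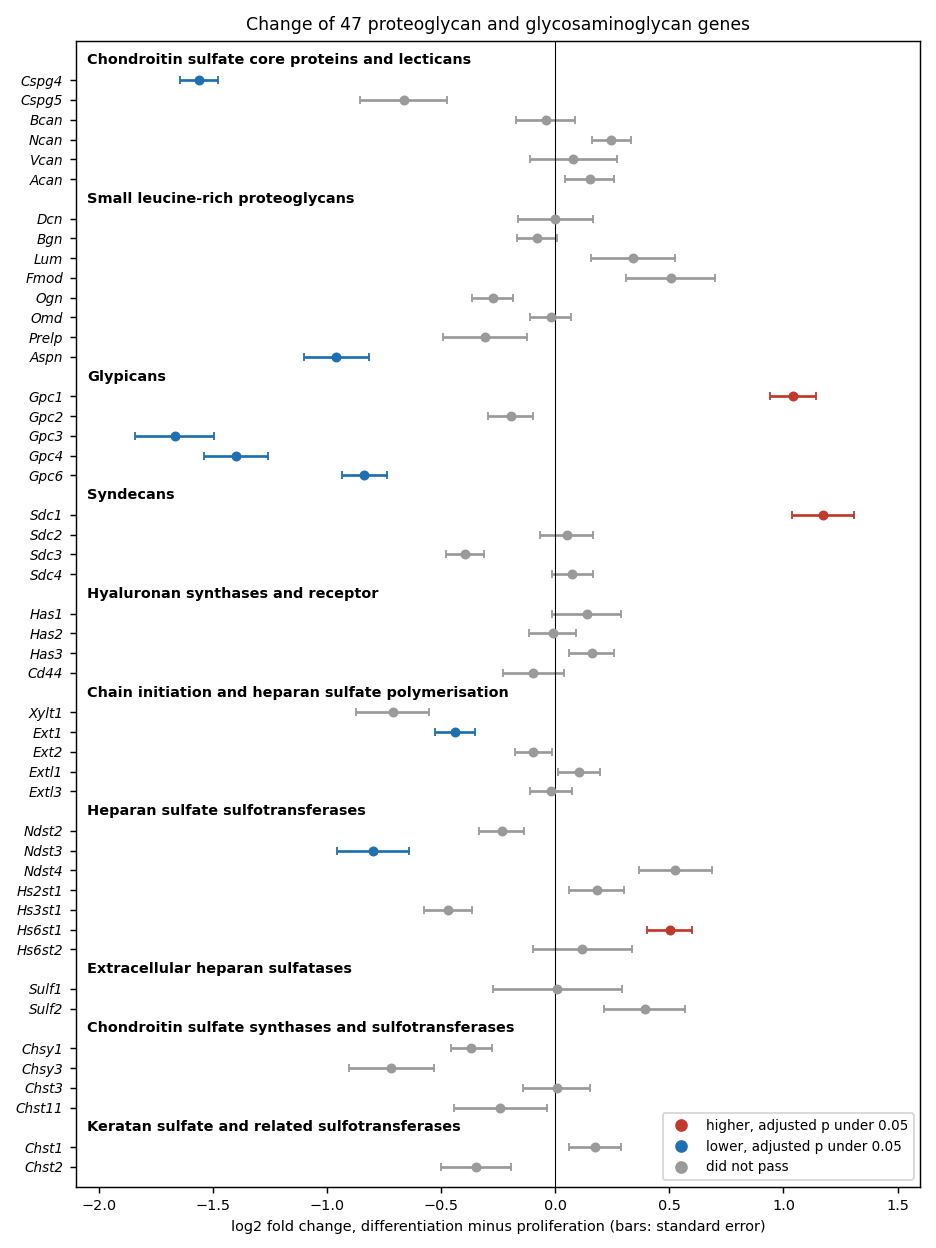
Log2 fold change (x axis, differentiation minus proliferation) with its standard error for each of the 47 genes, grouped by role. Genes past the test are red where they rose and blue where they fell. The changes of at least 2-fold were those of Gpc3, Cspg4, Gpc4, Sdc1 and Gpc1, which are all core proteins, while the enzymes lay between -0.80 and 0.53.

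Glypicans are heparan sulfate proteoglycans held to the membrane by a lipid anchor. Of the 5 glypicans listed, 4 passed the test, and they did not move in the same direction. Gpc3, which binds Hedgehog and Wnt proteins, had levels of 8.20, 8.57 and 8.40 on the differentiation arrays, against 9.83, 10.40 and 9.95 on the proliferation arrays. It fell by 1.67 on the log2 scale (SE 0.17, adjusted p = 0.00571), or 3.18-fold. Every differentiation array lay below every proliferation array.

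Gpc4, a glypican known from neural progenitors and as a synapse-promoting factor of astrocytes, had levels of 8.11, 8.25 and 7.96 in differentiation, against 9.77, 9.37 and 9.38 in proliferation. It fell by 1.40 (SE 0.14, adjusted p = 0.00525), or 2.64-fold. Gpc6 had levels of 9.62, 9.68 and 9.69 in differentiation, against 10.62, 10.54 and 10.33 in proliferation, a decrease by 0.84 (SE 0.10, adjusted p = 0.00784), or 1.79-fold. Gpc3 and Gpc4 passed with any array left out, whereas Gpc6 did not pass without differentiation replicate 1 (adjusted p = 0.0575).

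Gpc1 went the other way. This glypican, which is expressed in the nervous system and is a co-receptor for FGF, had levels of 12.52, 12.46 and 12.52 in differentiation, against 11.50, 11.28 and 11.59 in proliferation. It rose by 1.04 (SE 0.10, adjusted p = 0.00488), or 2.06-fold, and passed with any array left out. Gpc2, which is best known from developing neurons, changed by -0.20 with a 95% confidence interval of -0.43 to 0.04 and did not pass (adjusted p = 0.412).

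Gpc3 and Gpc4 are direct neighbours on chromosome X, with no protein-coding gene between them in the RefSeq annotation, and their promoters are shown because the pair fell together. Each sequence runs 5′ to 3′ on the strand of its gene, from 250 bases before to 50 bases after the start (RefSeq, GRCm38.p6), and capitals mark the GC box GGGCGG, searched on both strands. The Gpc3 promoter (chrX:52613925-52614224, minus strand) held 4 GC boxes and the Gpc4 promoter (chrX:52164874-52165173, minus strand) held 1, and they were 70.7% and 66.7% G and C.
Gpc3: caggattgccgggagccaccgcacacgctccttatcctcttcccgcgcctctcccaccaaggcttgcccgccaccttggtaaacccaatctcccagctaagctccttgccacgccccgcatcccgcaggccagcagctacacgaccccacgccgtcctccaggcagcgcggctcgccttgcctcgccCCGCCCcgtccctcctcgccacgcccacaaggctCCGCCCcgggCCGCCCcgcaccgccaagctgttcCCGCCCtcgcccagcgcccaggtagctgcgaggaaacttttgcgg
Gpc4: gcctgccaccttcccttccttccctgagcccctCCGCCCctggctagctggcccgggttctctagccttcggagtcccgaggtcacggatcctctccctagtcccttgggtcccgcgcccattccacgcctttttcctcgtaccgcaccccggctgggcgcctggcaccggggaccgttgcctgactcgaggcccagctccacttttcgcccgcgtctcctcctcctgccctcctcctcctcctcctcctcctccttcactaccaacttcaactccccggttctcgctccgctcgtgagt
A GC box lay in 46.2% of the 21263 promoters of protein-coding genes and in 35.7% of all 32851 promoters of that table. All 3 glypicans with a promoter in the table held one, Gpc2 with 3 matches, also without passing the test. The promoters of Gpc1 and Gpc6 were not analysed here.

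Among the chondroitin sulfate core proteins, Cspg4 fell and the lecticans did not pass the test. Cspg4, also called NG2, is a transmembrane proteoglycan of pericytes, of glial progenitors and of other immature cells that binds FGF and platelet-derived growth factor. Its levels were 8.76, 8.82 and 8.86 in differentiation, against 10.36, 10.46 and 10.30 in proliferation. It fell by 1.56 (SE 0.08, adjusted p = 0.00125), or 2.95-fold, with the lowest adjusted p of the 47 genes. It passed with any array left out, with an adjusted p of 0.00410 to 0.0171.

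Of 6 pericyte markers none passed, with mean levels of 8.38 to 8.55 in differentiation and 8.14 to 8.76 in proliferation. Of 6 markers of the oligodendrocyte lineage 1 passed, Olig1, which rose by 1.41 (adjusted p = 0.00192), and their mean levels were 7.34 to 7.55 in differentiation and 6.90 to 7.17 in proliferation. Neither of these lists held a gene that passed with a fall. Of the 6 markers of the oligodendrocyte lineage, 3 lay below 6.15 on all arrays. Of 5 enteric glia markers 2 fell, Fabp7 by 1.07 (adjusted p = 0.0203) and S100b by 0.74 (adjusted p = 0.0260), and Gfap rose by 1.16 (adjusted p = 0.0218), and their mean levels were 10.30 to 10.47 in differentiation and 10.08 to 10.54 in proliferation. All 5 markers of dividing cells fell. The part of these cell types in the decrease of Cspg4 was not tested. The Cspg4 promoter (chr9:56864854-56865153, plus strand) is given for comparison with the glypicans, with its 2 GC boxes in capitals.
Cspg4: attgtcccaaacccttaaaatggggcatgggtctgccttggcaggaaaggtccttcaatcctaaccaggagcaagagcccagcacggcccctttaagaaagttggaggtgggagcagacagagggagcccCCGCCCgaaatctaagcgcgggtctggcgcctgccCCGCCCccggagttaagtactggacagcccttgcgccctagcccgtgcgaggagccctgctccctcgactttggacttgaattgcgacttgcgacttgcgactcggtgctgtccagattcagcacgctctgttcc
It was 60.0% G and C.

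Cspg5, or neuroglycan C, a growth factor-like proteoglycan of neural tissue, had levels of 7.31, 7.29 and 7.22 in differentiation, against 7.54, 8.34 and 7.93 in proliferation. The groups did not overlap, but the proliferation arrays spread over 0.80, and the difference of -0.66 (SE 0.19) did not pass (adjusted p = 0.138). The lecticans bind hyaluronan and include Vcan, a major matrix proteoglycan of the gut mesenchyme, the brain proteoglycans Bcan and Ncan, and Acan, known from cartilage. None of the 4 passed, with changes of 0.08 for Vcan, -0.04 for Bcan, 0.25 for Ncan and 0.15 for Acan. For Vcan the 95% confidence interval was -0.38 to 0.54, so a change within that range, in either direction, was not excluded.

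Cspg4, Cspg5, Ndst3 and Chsy3 of the present genes, and Hspg2, Col18a1 and Ugdh among the other genes of the pathway, also stand in the study's own table of matrix genes, which was drawn from the same arrays. Their direction is therefore no independent evidence.

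The syndecans are transmembrane heparan sulfate proteoglycans that work with growth factor receptors and integrins. Sdc1, the syndecan of epithelia and plasma cells that is also present on neural progenitors, had levels of 10.16, 10.25 and 10.20 in differentiation, against 9.25, 8.74 and 9.09 in proliferation. It rose by 1.17 (SE 0.14, adjusted p = 0.00765), or 2.26-fold, and did not pass without differentiation replicate 1 (adjusted p = 0.0507). The epithelial and mesothelial markers, 0 of 8 of which passed, had mean levels of 5.63 to 5.81 in differentiation and 5.62 to 6.02 in proliferation. Of these 8 markers 6 were below 6.15 on all arrays, and the part of such cells in the rise of Sdc1 was not tested.

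Sdc3, the syndecan of nerve tissue, had 10.81, 10.80 and 10.86 in differentiation, against 11.12, 11.30 and 11.23 in proliferation. The difference of -0.40 (SE 0.08) was larger than the spread within the groups and lay just outside the threshold (adjusted p = 0.0517). Sdc2 (0.05) and Sdc4 (0.08) did not pass, with confidence intervals of -0.23 to 0.33 and of -0.14 to 0.29. The promoter of Sdc1 (chr12:8771146-8771445, plus strand), the gene that went in the direction opposite to Cspg4, Gpc3 and Gpc4, held 3 GC boxes, shown in capitals.
Sdc1: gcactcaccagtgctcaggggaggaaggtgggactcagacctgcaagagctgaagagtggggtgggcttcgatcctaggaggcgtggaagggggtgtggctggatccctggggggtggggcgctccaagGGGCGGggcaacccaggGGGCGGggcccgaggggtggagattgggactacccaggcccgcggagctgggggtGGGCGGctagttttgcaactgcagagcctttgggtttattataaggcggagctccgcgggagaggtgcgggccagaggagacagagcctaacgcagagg
All 3 syndecans with a promoter in the table held a GC box, so that the motif was present in members that rose, in members that fell and in members that did not pass.

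**Figure D2:**
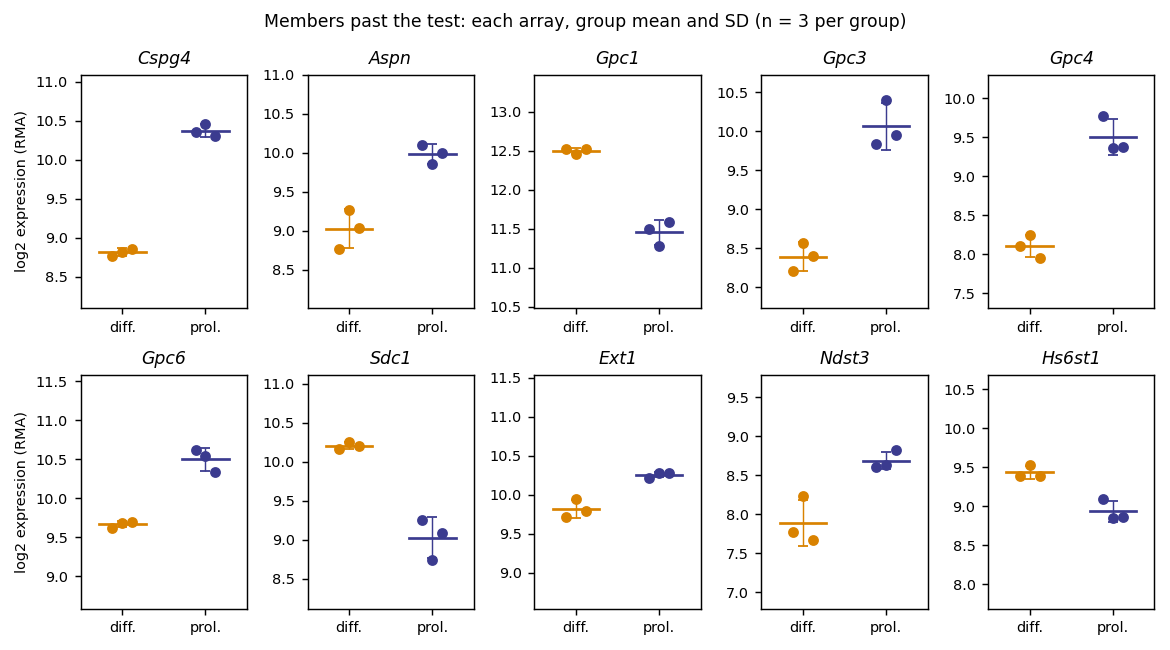
Log2 expression on each array for the 10 genes past the test, differentiation on the left and proliferation on the right of each panel, with group means and SD (n = 3 each). Each y axis spans 3 log2 units. The groups do not overlap in any panel, and Ext1 and Hs6st1 show the smallest distances.

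Small leucine-rich proteoglycans are secreted proteins that bind collagen fibrils and growth factors. Of the 8 listed, only Aspn passed in these arrays. Asporin, its product, binds collagen and TGF-beta. Aspn had levels of 8.77, 9.27 and 9.03 in differentiation, against 10.10, 9.85 and 10.00 in proliferation, a decrease by 0.96 (SE 0.14, adjusted p = 0.0161), or 1.94-fold. It did not pass without differentiation replicate 1 (adjusted p = 0.0632), differentiation replicate 3 (0.0526) or proliferation replicate 3 (0.0778).

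Dcn and Bgn, decorin and biglycan, which bind collagen and TGF-beta, changed by 0.00 and -0.08 and overlapped between groups. For Dcn the 95% confidence interval was -0.39 to 0.39, and for Bgn it was -0.29 to 0.13. Lum (0.34) and Fmod (0.51), which regulate the thickness of collagen fibrils, had adjusted p-values of 0.446 and 0.27. Fmod had 7.90, 8.49 and 8.11 in differentiation, against 7.92, 7.35 and 7.71 in proliferation, so the lowest differentiation array lay just below the highest proliferation array. Prelp (-0.31), Ogn (-0.27) and Omd (-0.02) did not pass either.

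The promoters of this family were poorer in G and C than those of core proteins as a whole. The 6 with an entry had a median of 46.7% G and C, against 63.7% over all 17 promoters of core proteins, and 1 of the 6, that of Bgn, held a GC box. The Aspn promoter (chr13:49544193-49544492, plus strand) was 31.0% G and C and held no GC box but 2 matches to TATAAA, a core of the TATA box, in capitals on either strand. Both matches lay toward the 5′ end of the window, far from the start.
Aspn: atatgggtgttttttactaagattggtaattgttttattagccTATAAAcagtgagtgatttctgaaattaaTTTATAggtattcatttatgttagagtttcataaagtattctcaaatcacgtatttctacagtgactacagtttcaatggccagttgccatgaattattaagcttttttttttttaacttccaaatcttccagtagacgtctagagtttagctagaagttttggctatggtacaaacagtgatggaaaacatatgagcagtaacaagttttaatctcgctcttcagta
TATAAA was found in 12.6% of promoters of protein-coding genes, and within this family in Aspn and Ogn. The other motifs searched on both strands were CCGGAA (ETS core), TGAGTCA (AP-1) and CACGTG (E-box). Over all 36 promoters of the 33 genes matched, 22 held a GC box (61.1%), 5 TATAAA (13.9%), 2 CCGGAA and 2 CACGTG (5.56% each) and 0 TGAGTCA, against 46.2%, 12.6%, 18.7%, 7.84% and 4.66% of promoters of protein-coding genes. These are matches of letters within the window shown and do not show binding.

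Several of the small leucine-rich proteoglycan genes lie side by side, and neighbours did not move together throughout. On chromosome 13, in the order Ecm2, Aspn, Omd and Ogn, the changes were -0.58, -0.96, -0.02 and -0.27, where Ecm2, a matrix protein of the same family that is no member, lay just outside the threshold (adjusted p = 0.0544). On chromosome 10, in the order Dcn, Lum, Kera and Epyc, they were 0.00, 0.34, 1.32 and 0.28, and of these only Kera, the keratan sulfate proteoglycan keratocan, passed. On chromosome 1 the neighbours Prelp and Fmod had changes of -0.31 and 0.51. Gpc6 fell while its neighbour Gpc5 on chromosome 14 changed by 0.04 and was below 6.15 on all arrays. The lecticans each lie beside a gene for a link protein, Hapln1 to Hapln4, and none of these 8 genes passed.

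**Figure D3:**
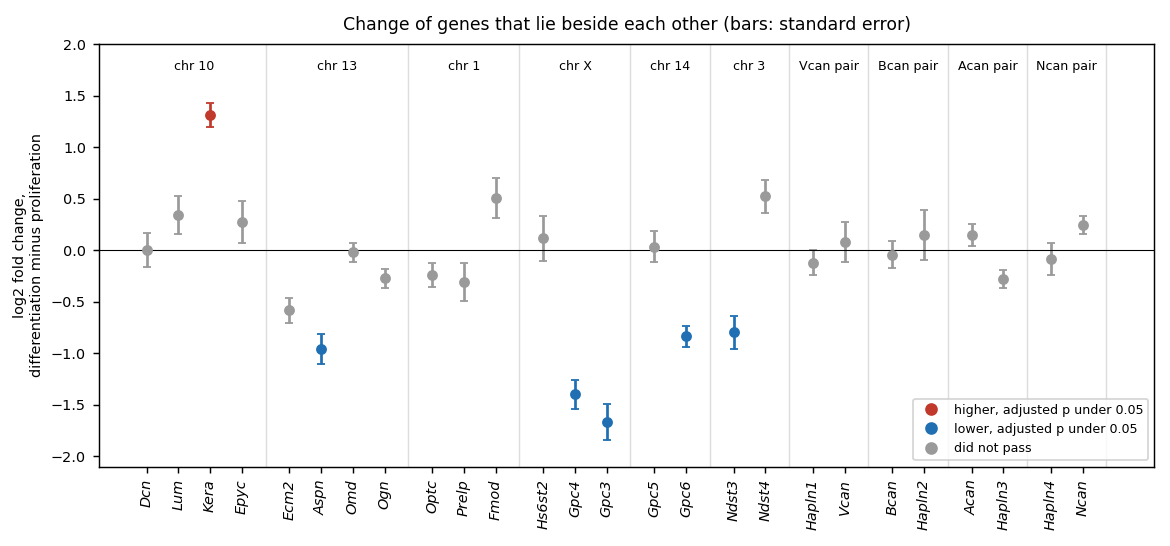
Log2 fold change (y axis, differentiation minus proliferation) with its standard error for genes that lie next to each other, each block in chromosomal order. Ndst3 and Ndst4 have 3 protein-coding genes between them and Hs6st2 and Gpc4 have 2, the others have none. Gpc4 and Gpc3 fell together, whereas Kera rose and Aspn and Gpc6 fell beside neighbours that did not pass.

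Among the 47 genes, the changes of at least 2-fold all lay in core proteins, while the typical size of change was alike in enzymes and core proteins. Of the 20 enzymes, 3 passed (15.0%), 1 higher and 2 lower, and none changed by 2-fold. Of the 23 core proteins, 7 passed (30.4%), 2 higher and 5 lower, and 5 changed by at least 2-fold. Over all genes 5.91% passed, and 481 of 19938 changed by at least 2-fold. Among genes with a mean level of at least 6.15 these were 9.13% and 449 of 11985. Chst7, a sulfotransferase outside the 47, fell by 2.52-fold. The median changes were alike, -0.06 for enzymes and -0.04 for core proteins, as were the median absolute changes of 0.29 and 0.31. The difference between these groups was not tested. An unadjusted limma p under 0.05 was found in 8 of 20 enzymes and 12 of 23 core proteins. Over all genes the number was 3816 of 19938, and among genes with a mean level of at least 6.15 it was 3270 of 11985.

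Ext1, a subunit of the polymerase of heparan sulfate, had levels of 9.72, 9.95 and 9.79 in differentiation, against 10.22, 10.28 and 10.28 in proliferation. It fell by 0.44 (SE 0.09, adjusted p = 0.0461), and it did not pass when any of the 6 arrays was left out (adjusted p from 0.0582 to 0.206). Its partner in the polymerase, Ext2, changed by -0.10 with a confidence interval of -0.29 to 0.10. Xylt1, which starts heparan sulfate and chondroitin sulfate chains, had 9.94, 9.92 and 9.97 in differentiation, against 10.38, 11.01 and 10.58 in proliferation. The groups did not overlap, yet the difference of -0.71 (SE 0.16) did not pass (adjusted p = 0.0646) except without proliferation replicate 1 (0.0393). Extl1 (0.10) and Extl3 (-0.02), exostosin-like transferases, did not pass.

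Sulfation of heparan sulfate begins with the N-deacetylase/N-sulfotransferases. Ndst3 had levels of 7.77, 8.23 and 7.67 in differentiation, against 8.61, 8.64 and 8.82 in proliferation, a decrease by 0.80 (SE 0.16, adjusted p = 0.0427). Ndst4 had 6.48, 6.89 and 6.74 in differentiation, against 5.97, 6.11 and 6.45 in proliferation, a difference of 0.53 in the other direction that did not pass (SE 0.16, adjusted p = 0.159). Ndst2, the form common in many tissues, changed by -0.23 (adjusted p = 0.32). Ndst3 passed without differentiation replicate 2 (adjusted p = 0.0258) but not without any other array (0.0866 to 0.183).

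Hs6st1, which adds sulfate at the 6-O position, had levels of 9.39, 9.53 and 9.38 in differentiation, against 9.09, 8.85 and 8.86 in proliferation. It rose by 0.50 (SE 0.10, adjusted p = 0.0445), and among the member enzymes it was the only one to pass with a rise in this fit. It passed without proliferation replicate 1 (adjusted p = 0.0342) but not without any other array (0.0879 to 0.178). Its paralog Hs6st2 changed by 0.12, with 7.90, 8.15 and 7.95 in differentiation, against 8.33, 7.45 and 7.86 in proliferation.

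Hs3st1, which makes the rare 3-O-sulfated sites that bind antithrombin, had 7.78, 7.88 and 7.76 in differentiation, against 8.13, 8.26 and 8.44 in proliferation (-0.47, SE 0.10, adjusted p = 0.0616). Hs2st1, the 2-O-sulfotransferase, changed by 0.18. The extracellular sulfatases Sulf1 and Sulf2 remove 6-O-sulfate from finished chains and thereby alter FGF and Wnt signalling. Sulf1 had 5.57, 5.73 and 5.68 in differentiation, against 6.29, 5.06 and 5.60 in proliferation, and Sulf2 had 11.03, 11.20 and 11.03 in differentiation, against 10.99, 10.30 and 10.79 in proliferation. Neither passed (changes of 0.01 and 0.39, adjusted p = 0.994 and 0.356).

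Chsy3 and Chsy1, the synthases of chondroitin sulfate among the members, were lower on all differentiation arrays without passing the test. Chsy3 had 7.42, 7.43 and 7.61 in differentiation, against 8.61, 7.87 and 8.13 in proliferation (-0.72, SE 0.19, adjusted p = 0.0996). Chsy1 had 10.49, 10.64 and 10.56 in differentiation, against 10.84, 11.04 and 10.90 in proliferation (-0.37, SE 0.09, adjusted p = 0.0875). The groups did not overlap in either gene. Chst3 and Chst11, which sulfate chondroitin, changed by 0.01 and -0.24, and Chst1 and Chst2, which sulfate keratan sulfate and related sugars, by 0.17 and -0.35, and none of these 4 passed.

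Some genes close to the threshold passed under other settings, of which only a part counted fewer tests. With all clusters kept, Sdc3, Xylt1 and Chsy1 also passed with limma-trend, and Sdc3 and Hs3st1 with cyclic loess. With the adjustment over clusters with 1 symbol alone, or over the brighter clusters alone, Sdc3, Xylt1, Hs3st1, Chsy1 and Chsy3 also passed, all of them lower, which brought the number of genes to 15 of 47 and that of enzymes to 7 of 20. Over the whole array, 2038 clusters passed with single-symbol clusters and 2112 with brighter clusters, against 1459 with all clusters.

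Hyaluronan genes did not pass. Has2, the main hyaluronan synthase of embryonic tissue, had 10.02, 10.20 and 10.11 in differentiation, against 9.99, 10.10 and 10.27 in proliferation, a change of -0.01 with a confidence interval of -0.25 to 0.23. Has1 and Has3 were below 6.15 on all arrays. Cd44, the receptor, had 8.93, 9.04 and 8.84 in differentiation, against 9.25, 8.78 and 9.06 in proliferation, a change of -0.10 with a confidence interval of -0.41 to 0.22.

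The proliferation arrays differed more among themselves than the differentiation arrays did. The SD was larger in proliferation in 37 of the 47 genes (78.7%), against 54.6% of all genes and 60.3% of genes with a mean level of at least 6.15. The median SD over the 47 was 0.17 in proliferation and 0.09 in differentiation, against 0.115 and 0.105 over all genes. In 16 of the 47 genes the proliferation arrays spread over at least 0.5. In 11 of these (68.8%) replicate 1 was highest and replicate 2 lowest, namely Vcan, Dcn, Lum, Fmod, Sdc1, Hs6st2, Sulf1, Sulf2, Chsy3, Chst11 and Chst2, and in Cspg5, Gpc3, Xylt1, Chst3 and Prelp replicate 2 was highest. Of the 2333 genes with such a spread on the whole array, 48.0% had replicate 1 highest and replicate 2 lowest.

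Markers of some cell types had these patterns too. Replicate 1 was highest and replicate 2 lowest in 6 of 7 fibroblast markers and 4 of 6 pericyte markers, and the mean level of the fibroblast markers was 10.83, 10.23 and 10.47 on proliferation replicates 1, 2 and 3. Replicate 2 was highest and replicate 1 lowest in 5 of 5 markers of dividing cells and 4 of 7 neural crest progenitor markers. Over all 19938 genes, whatever their spread, 29.3% had replicate 1 highest and replicate 2 lowest. The share with replicate 2 highest and replicate 1 lowest was 18.8%. Neuron markers mostly had neither order (1 of 7 had replicate 1 highest and replicate 2 lowest, and 0 the other), yet replicate 2 was lowest there too. Their mean level was 10.04, 9.63 and 10.19 on proliferation replicates 1, 2 and 3. That of the markers of interstitial cells of Cajal was 11.07, 10.70 and 11.09. For the stromal proteoglycans Dcn, Lum and Vcan the levels on these arrays were 12.41, 11.76 and 12.03 for Dcn, 11.07, 10.32 and 10.60 for Lum, and 11.19, 10.49 and 10.59 for Vcan. The proliferation arrays spread over 0.57 for Gpc3, which fell by 1.67, and over 0.51 for Sdc1, which rose by 1.17. Gpc3 had replicate 2 highest and replicate 1 lowest, as the markers of dividing cells had. The part of the cell mixture in these values and changes was not tested. Without proliferation replicate 1 the number past the test was the same, 10 of 47, but the genes differed. Ext1 (adjusted p = 0.0871) and Ndst3 (0.0866) then did not pass, while Cspg5 (0.0365) and Xylt1 (0.0393) did. Without proliferation replicate 2 the number was 7.

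**Figure D4:**
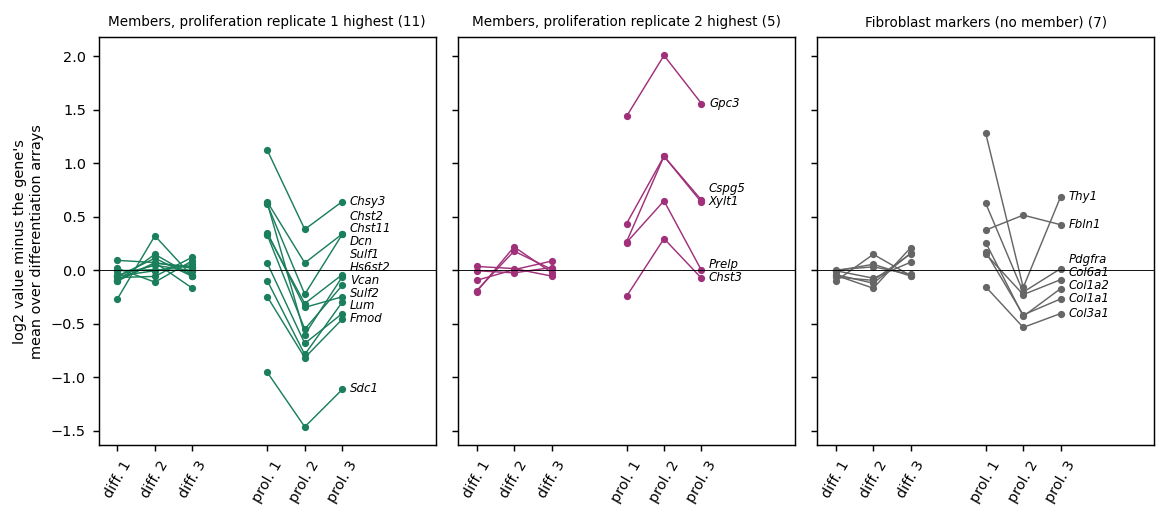
Log2 level of each gene minus its mean over the differentiation arrays (y axis), on each of the 6 arrays (x axis), for the 16 members whose proliferation arrays spread over at least 0.5, in 2 panels, and for 7 fibroblast markers. Lines join the arrays of a gene within a group and imply no order. In the left panel proliferation replicate 2 is lowest for all 11 genes, as it is for 6 of the 7 fibroblast markers. The order is not particular to fibroblast markers in this respect. Markers of neurons and of interstitial cells of Cajal, not shown, also had their lowest mean level in proliferation on replicate 2 (9.63 and 10.70).

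Of 98 other genes of proteoglycan assembly and breakdown, 91 were measured and 10 passed (11.0%), 5 higher and 5 lower, with a median change of 0.02. The share was 5.91% over all genes and 9.13% over genes with a mean level of at least 6.15, so the count lay near that of brighter genes. The other core proteins (20 measured) held 3 genes that rose and 0 that fell. Hspg2, or perlecan, the large heparan sulfate proteoglycan of basement membranes, had 11.77, 11.57 and 11.55 in differentiation, against 10.95, 10.53 and 10.59 in proliferation, a rise by 0.94 (SE 0.13, adjusted p = 0.0142). Col18a1, a collagen of basement membranes that carries heparan sulfate, rose by 0.67 (SE 0.08, adjusted p = 0.00877). Kera rose by 1.32 (SE 0.12, adjusted p = 0.00376), with 7.46, 7.57 and 7.54 in differentiation, against 6.02, 6.42 and 6.17 in proliferation. Kera passed with any array left out. Hspg2 did not pass without differentiation replicate 1 or 2 or proliferation replicate 3 (adjusted p up to 0.0778), nor Col18a1 without differentiation replicate 1 or proliferation replicate 3 (up to 0.0627). Ptprz1, the receptor phosphatase that carries chondroitin sulfate, lay just outside the threshold (-0.83, SE 0.17, adjusted p = 0.0503).

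Among 13 genes for the supply of sugar and sulfate donors, 2 rose and 0 fell (15.4% past the test, against 5.91% of all genes and 9.13% of the brighter ones). Ugdh, which makes UDP-glucuronic acid, the donor for all chains but keratan sulfate, had 10.93, 10.86 and 10.90 in differentiation, against 10.27, 10.28 and 10.30 in proliferation, a rise by 0.61 (SE 0.07, adjusted p = 0.0082). Ugp2, the enzyme of the step before it, which makes UDP-glucose, rose by 0.61 (SE 0.12, adjusted p = 0.0453). Ugdh did not pass without differentiation replicate 1 (adjusted p = 0.0637), and with an array left out Ugp2 passed only without proliferation replicate 2 (0.0268, others up to 0.177).

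Among 14 genes of chain breakdown, 2 fell and 0 rose (14.3% past the test, against the same shares). They were the lysosomal enzymes Arsb, which removes sulfate from chondroitin and dermatan sulfate (-0.61, SE 0.10, adjusted p = 0.0219), and Sgsh, which removes N-linked sulfate from heparan sulfate (-0.59, SE 0.11, adjusted p = 0.032). With an array left out, Arsb passed only without differentiation replicate 2 (0.0422, others up to 0.109), and Sgsh did not pass in any of the 6 settings (0.0503 to 0.148). Adamts9, a protease that cuts versican and aggrecan, fell by 1.27 (SE 0.25, adjusted p = 0.0408) and was the only one of 7 such proteases to pass in this fit. With an array left out it passed only without proliferation replicate 1 or 2 (lowest adjusted p 0.0142, highest 0.155).

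Chst7, a sulfotransferase for the 6-O position of chondroitin, was the only one of the 14 other sulfotransferases to pass, with 6.28, 6.27 and 6.66 in differentiation, against 7.14, 8.14 and 7.93 in proliferation (-1.33, SE 0.26, adjusted p = 0.0415). With an array left out it passed only without proliferation replicate 1 (0.00929, others up to 0.171). Of the 10 link and hyaluronan-binding proteins, Hmmr fell by 2.11 (SE 0.31, adjusted p = 0.0152), with 5.08, 5.57 and 5.20 in differentiation, against 6.76, 8.01 and 7.40 in proliferation. Hmmr binds hyaluronan and also serves the mitotic spindle, and its proliferation arrays had the same order as the 5 markers of dividing cells. It did not pass without differentiation replicate 1 or 3 or proliferation replicate 3 (up to 0.0815). None of the 13 linkage region and other chain-making enzymes passed, with changes between -0.21 and 0.36. An unadjusted limma p under 0.05 was found in 2 of the 13, against 3816 of 19938 over all genes.

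**Figure D5:**
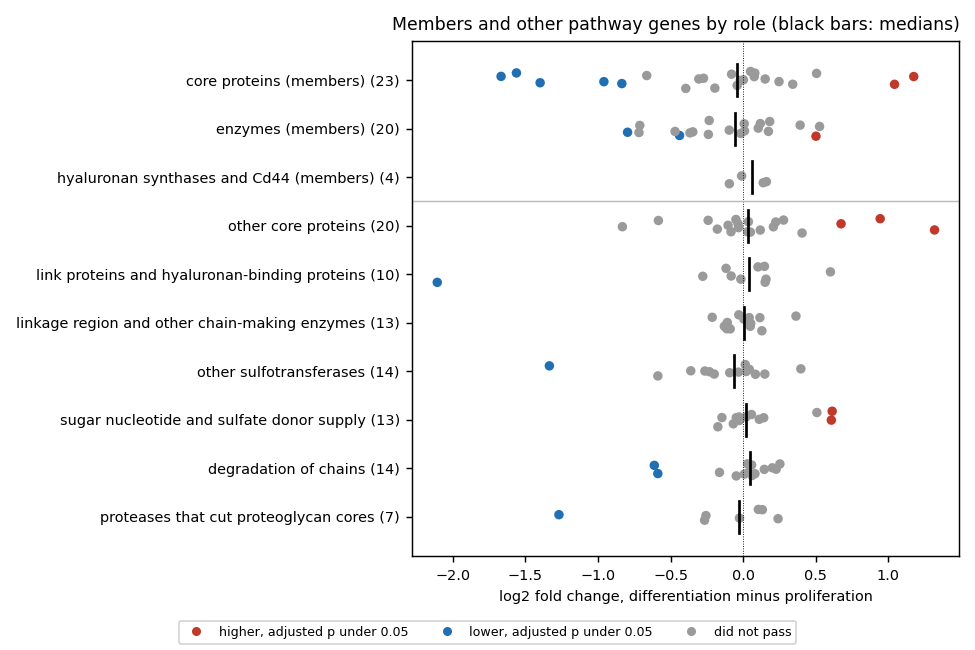
Log2 fold change (x axis, differentiation minus proliferation) of each member (above the grey line) and each other gene of the pathway (below it), by role, with gene numbers in brackets and black bars at the medians. Genes past the test are red where they rose and blue where they fell. Every median lies between -0.06 and 0.06, the core proteins spread furthest among the members, and the linkage region enzymes hold no gene past the test.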

How the data were processed

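The deposited values were log2 expression levels, made by the authors with RMA in Partek Software 6.6 from GeneChip Mouse Gene 1.0 ST arrays of total RNA, after AGCC 3.0 and Expression Console 1.0. RMA as usually run makes the distributions of the arrays alike and hides any shift common to most transcripts. The genome build behind the clusters is not given in the sources used here.

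Gene symbols came from the platform's annotation. Of 35556 clusters, 21789 carried 1 symbol, and a gene with several took its brightest cluster. The Entrez identifiers of all 47 measured genes were in RefSeq's table of GRCm38.p6, used for names and gene order. The test was lmFit and eBayes of limma 3.58.1 in R 4.3.3, two-sided and without covariates, and a call was an adjusted p under 0.05. Confidence intervals of 95% used the moderated SE. No detection call was used. Array values carry no counts, so 3 arrays per group limit the precision. Promoters came from RefSeq (GRCm38.p6).

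The genes, lists, tests and alternatives were chosen with earlier results of these data known. Values per array were given for members past the test or with an absolute change of at least 0.58, and of the other genes up to 4 per list past the test were named. Values of other members, Ptprz1 and Ecm2 were added after they were seen. The alternatives were a replicate block, limma-trend, cyclic loess, median centring, brighter clusters, clusters with 1 symbol, array weights, leaving out each array, the mean of a gene's clusters, a 1.5-fold minimum and the methods' t-test. The steps were tested on simulated data. Tables and figures used pandas 2.3.3, numpy 2.4.6 and matplotlib 3.10.9 in Python 3.11.15.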

Additional observations from a re-analysis of the deposited data

How the results depend on the processing

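No gene past the test changed direction. Of 170 values of the 10 genes, 132 kept their side of the threshold and 38 did not. With one array left out in turn, 4 to 10 of the 47 genes passed, 4 to 8 core proteins, 0 to 2 enzymes, 1 to 9 other pathway genes and 294 to 1297 clusters, against 10, 7, 3, 10 and 1459 with all arrays. Enzymes numbered 5 with limma-trend, 7 with brighter clusters, clusters with 1 symbol or the mean of clusters, where fewer features were tested, and 1 with a 1.5-fold minimum. Array weights gave differentiation replicate 1 a weight of 7.45 and proliferation replicate 3 one of 3.62, and 26 of the 47 genes passed (14 core proteins, 12 enzymes), with 36 other pathway genes and 12721 clusters. The methods' t-test, once adjusted by Benjamini-Hochberg, called 1 gene, Cspg4 (1 core protein, 0 enzymes), 2 other pathway genes and 253 clusters. The causes were not tested. The core protein median lay between -0.09 and -0.0042 and the enzyme median between -0.19 and -0.05 under all settings. Median centring gave 611 clusters higher and 851 lower, against 693 and 766.

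Same-numbered arrays did not deviate together (correlations of -0.003, 0.090 and -0.074). With a replicate block 6 of the 47 genes passed, 0 of them enzymes, with 4 other pathway genes and 664 clusters. Aspn (adjusted p = 0.0731), Ext1 (0.12), Ndst3 (0.109) and Hs6st1 (0.132) were then past the threshold no longer.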
